A study of Mus musculus with 22 samples.

Results

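The respiratory chain genes described here were 125 of the 55376 genes in the count tables. They were taken by name: subunit genes of complex I (names beginning Ndufa, Ndufb, Ndufc, Ndufs or Ndufv with a number), complex II (Sdha to Sdhd), complex III (Uqcr), complex IV (Cox4 to Cox8) and complex V, the ATP synthase (Atp5), and every gene of the mitochondrial genome (mt-). Names containing -ps were left out, which removed 8 rows. Ndufs6b, Cox6c2 and Ndufb4c are annotated as processed pseudogenes but lack -ps in their names. They stayed among the members, with at most 3 counts in any library. Of the members, 88 were nuclear genes, with 40 in complex I, 4 in complex II, 8 in complex III, 19 in complex IV and 17 in complex V. The complex follows the name, so Ndufa4, now known as a complex IV subunit, and its paralogue Ndufa4l2 are counted in complex I. The other 37 were mitochondrial: 13 mRNAs, 2 rRNAs and 22 tRNAs. The rule reads gene names and not values. In every library used, 85 members had at least 10 counts, 76 of them nuclear.

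The libraries were poly(A)-selected RNA of sorted cells from E12.5 mouse embryos, pooled by genotype. Endothelial cells were sorted for Kdr::Cherry, a red reporter of the endothelial receptor gene Kdr, and motor neurons for ISL1::GFP, a green reporter of the motor neuron gene Isl1. The knockout series compared wild-type and Plxnd1 knockout embryos in cells from the cord with its surrounding meninges: wild-type endothelial cells (n = 2 usable), knockout endothelial cells (n = 3), wild-type motor neurons (n = 3) and knockout motor neurons (n = 3). Plxnd1 encodes a semaphorin receptor of endothelial cells and neurons. The regional series compared wild-type endothelial cells of the spinal cord (n = 5) with those of the meninges (n = 5), with ventral cord in batches 1 to 3 and whole cord in batches 4 and 5. All groups thus came from reporter embryos. Each library was a pool of embryos, and p-values here cover only how such pools varied.

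The respiratory chain passes electrons from NADH and succinate through complexes I to IV to oxygen and pumps protons, and complex V uses the proton gradient to make ATP. All subunits of complex II and most of the others are encoded in the nucleus. The mitochondrial genome encodes core subunits of complexes I, III, IV and V, is transcribed as long polycistronic RNAs, and has many nuclear copies of its own sequence. Some nuclear subunits exist in a general and a restricted form, such as Cox4i1 and Cox4i2.

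Libraries held 20680902 to 27035395 counts each in the knockout series, and the regional ones held 15685784 to 21493255. The 2 series were counted with different strand settings and were not tested against each other. One wild-type endothelial table (batch 2) was identical to knockout batch 1 in every gene and was left out. Plxnd1 was at 213 and 175 CPM (counts relative to the scaled library size) in the wild-type endothelial libraries and at 28.9, 15.4 and 18.7 in the knockout ones. In motor neurons it was at 12.1, 5.14 and 7.79 in wild type and 1.78, 0.645 and 0.771 in knockouts, so the groups did not overlap in either cell type. Summed endothelial markers (12 genes) reached 558.5 to 1301 CPM in endothelial libraries of the knockout series against 13.15 to 36.29 in motor neurons, and motor neuron markers (9 genes) 574.4 to 1750 against 59.16 to 103.5. The endothelial libraries of the knockout series also held 14370 to 17280 CPM of fibroblast and meningeal markers (9 genes) and 10720 to 23540 CPM of erythroid markers (10 genes), against at most 237 and 144.6 CPM in motor neurons, so the sorted fractions were not endothelial RNA alone. In such bulk libraries fewer cells of a type and less RNA per cell cannot be told apart.

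A stretch of the mitochondrial genome was nearly unread in every library. mt-Co2, mt-Atp8, mt-Atp6, mt-Co3, mt-Nd3 and mt-Nd4l, which lie together at chrM:7013-10173 (GRCm38) with 3 tRNA genes between them, had at most 1 count in any library, and they encode subunits of complexes IV, V and I. The other 7 mRNAs, on both sides of the stretch, had at least 10 counts everywhere. Nuclear chromosome 1 carries copies of genes of this stretch and its flanks on the minus strand at chr1:24611535-24616197, annotated as a row of separate genes. Each unread mRNA had an annotated copy there except mt-Atp8, for which the search of annotated transcripts found none. The copies of mt-Nd4l (Gm10222), mt-Co3 (Gm28437), mt-Atp6 (Gm10925) and mt-Co2 (Gm28661) were 100% identical over their aligned bases. Reads that align equally well to both places were not counted, per the settings in the file headers. Whether this accounts for the empty stretch was not tested.

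The mt-Nd3 copy differed in a single base, and it was the copy with the highest counts. Gm28438 matched mt-Nd3 over 345 aligned bases with 1 mismatch (99.71% identity). The following 93 bases are shown because they hold that mismatch, in capitals, which is T3C counted from the first base of mt-Nd3 (chrM:9459-9551, plus strand; the copy at chr1:24613027-24613119, minus strand; GRCm38).
mt-Nd3: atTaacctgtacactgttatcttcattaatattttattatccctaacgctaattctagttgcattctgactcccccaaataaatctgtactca
Gm28438: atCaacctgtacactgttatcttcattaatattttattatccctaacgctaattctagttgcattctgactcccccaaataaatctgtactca
Gm28438 had 4 to 49 counts per library of the knockout series and 0 to 11 per regional library, and no other copy on chromosome 1 exceeded 6. Statements on mitochondrial mRNA below therefore rest on mt-Nd1, mt-Nd2, mt-Co1, mt-Nd4, mt-Nd5, mt-Nd6 and mt-Cytb. Of these, mt-Nd4 has a nuclear copy at 98% identity or more over 63.6% of its length and mt-Co1 over 31.3%.

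**Figure D1:**
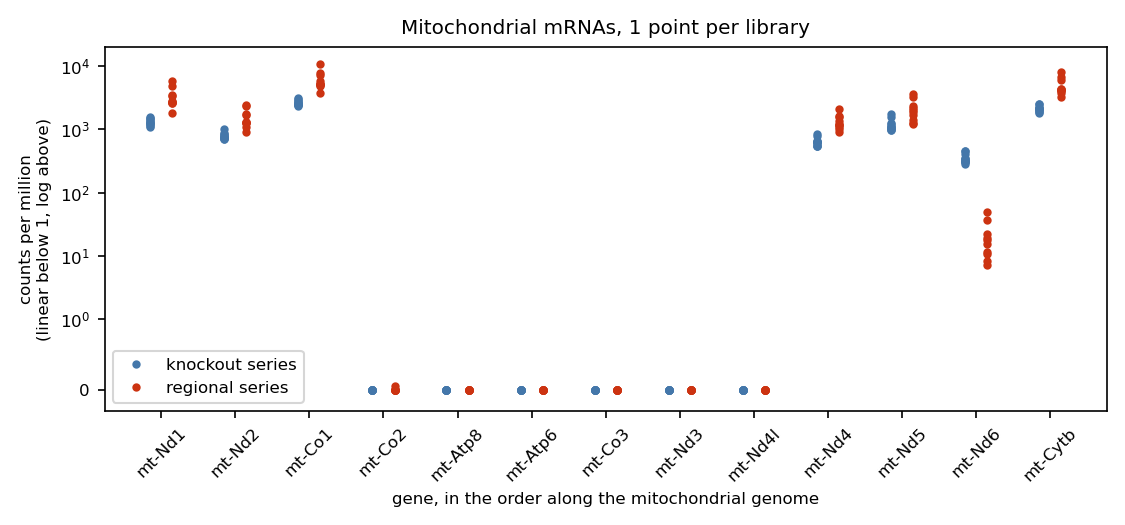
CPM of the 13 mitochondrial mRNAs in genome order (horizontal axis) for each library, on a log scale that runs linearly through 0 (vertical axis); knockout series in blue, regional series in red. From mt-Co2 to mt-Nd4l all libraries lie at or next to 0, and at mt-Nd6 the regional libraries lie far below the knockout series.

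mt-Nd6, the only mRNA encoded on the light strand, stood apart between the series, which were counted with different strand settings. It made up 3.26 to 4.65% of mitochondrial mRNA counts in the libraries counted without strand and 0.0443 to 0.155% in those counted with a reverse strand setting. In the first set, reads from mt-Nd6 and from the opposite strand of the same stretch cannot be told apart.

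Nuclear members have near copies too. Of 87 nuclear members with a transcript to search, 27 had an annotated copy elsewhere in the transcriptome, and 13 were covered over more than 20% of their length at 98% identity or more. Atp5l, a small membrane subunit of complex V, had 10 such copies and 3 to 16 counts per library. Atp5g2, which encodes the c subunit of the rotor ring, was covered over 88.2%. Its counts per library were 19 to 41 in the knockout series but 422 to 816 in the regional one. Levels of these genes are therefore uncertain, while a comparison within one series treats each library alike.

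In all groups the members together took a small share of the counts. The 88 nuclear genes made up 0.642% ± 0.0134 (SD, n = 2) of counts in wild-type endothelial cells, 0.641% ± 0.0187 (n = 3) in knockout endothelial cells, 0.677% ± 0.0135 (n = 3) in wild-type motor neurons and 0.653% ± 0.0206 (n = 3) in knockout motor neurons. These 4 groups lay within 0.627 to 0.691%. Wild-type motor neurons, from 0.664% upward, were above all endothelial libraries, which ended at 0.662%, and knockout motor neurons overlapped with every group. The measured mitochondrial mRNAs made up 0.870% ± 0.0707, 1.03% ± 0.163, 0.874% ± 0.0327 and 0.848% ± 0.0569 in the same order. Knockout endothelial batches 2 and 3, at 1.13 and 1.12%, were the highest, and batch 1 at 0.842% lay between both wild-type libraries.

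In the regional series the nuclear share was 0.704, 0.814, 0.730, 0.975 and 0.953% in spinal batches 1 to 5 and 1.22, 1.02, 1.06, 0.964 and 0.953% in the meningeal ones. The spinal and meningeal libraries were apart in batches 1 to 3 and together in batches 4 and 5. Mitochondrial mRNA made up 1.71, 2.18, 1.65, 1.16 and 1.65% in spinal and 3.08, 2.65, 1.86, 1.62 and 1.54% in meningeal batches. Batch 5 was the only one in which the meningeal share was not the higher.

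**Figure D2:**
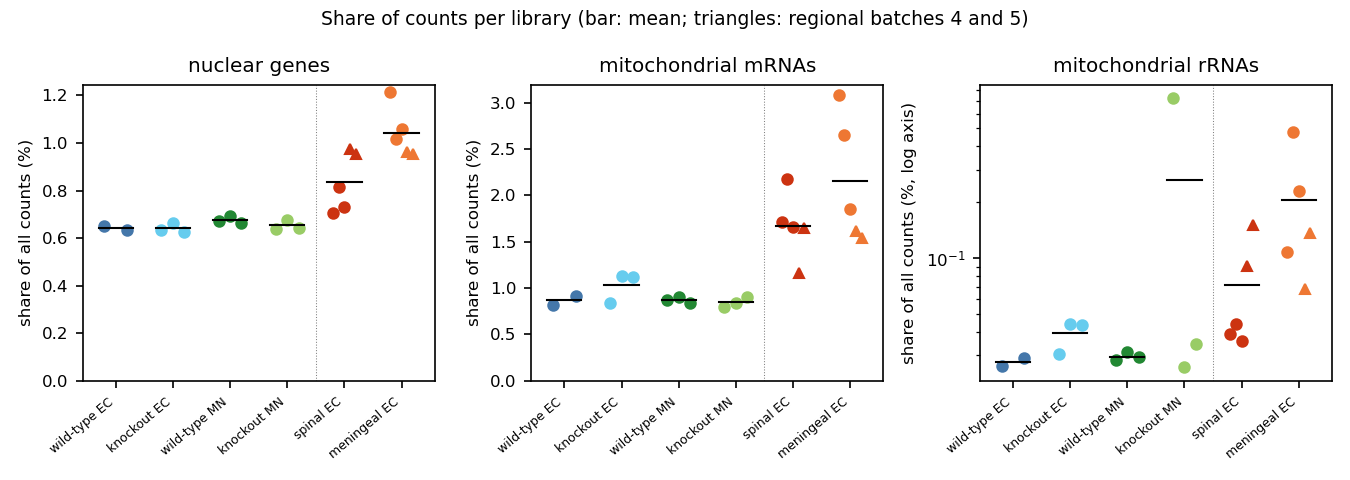
Percent of all counts taken by the nuclear members, the mitochondrial mRNAs and the mitochondrial rRNAs (log axis) in each library; bars are group means and triangles are regional batches 4 and 5. The nuclear share of spinal batches 4 and 5 (0.975 and 0.953%) reaches that of the meninges, and 1 knockout motor neuron library stands at 0.728% rRNA.

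Divided by exon length and scaled to the same sum in every library, which allows genes to be compared, Atp5b led the nuclear members in both cell types. Atp5b encodes the catalytic beta subunit of complex V. Its length-scaled level was 1372 ± 66.6 (SD, n = 2) in wild-type endothelial cells and 1903 ± 69.1 (n = 3) in wild-type motor neurons. In endothelial cells Atp5g3 (955 ± 3.89), a c subunit gene, Cox4i1 (872 ± 9.08), the general form of a complex IV subunit, and Atp5a1 (799 ± 47.7), the alpha subunit, followed. In motor neurons Atp5a1 (1007 ± 12.7), Atp5g3 (964 ± 28) and Cox4i1 (917 ± 14.2) came next. Atp5a1 and Atp5g3 differed there by less than 2 SD of Atp5g3, as did Atp5g3 and Cox4i1, so the order of these neighbours is not resolved. In spinal endothelial cells Atp5b (1409 ± 51.8) preceded Cox4i1 (1013 ± 134). In meningeal ones Cox4i1 (1366 ± 157) and Atp5b (1343 ± 127) did not differ beyond their spread, and Uqcrh (974 ± 189), the hinge protein of complex III, followed. The median nuclear member stood at 134.4 in wild-type endothelial cells and 154.6 in wild-type motor neurons, and at 182.8 in spinal and 189.0 in meningeal endothelial cells.

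The c subunit of the ATP synthase rotor is made from Atp5g1, Atp5g2 and Atp5g3, whose mature proteins are the same. Atp5g3 was the main one by counts per length in every group, at 729.8 ± 39.3 in spinal and 876 ± 82.0 in meningeal cells. Atp5g1 stood at 4.43 ± 0.852 in wild-type endothelial cells and 9.74 ± 1.88 in wild-type motor neurons. It had 19 annotated copies, over 18.3% of its transcript, and an exon length of 4912 bases. Atp5g3 had no annotated copy and 724 bases, so the ranking by counts per length carries this uncertainty. Atp5g2 stood at 4.30 ± 0.312 and 4.70 ± 0.720 there and at 111 ± 6.39 in spinal endothelial cells, with the uncertainty from its copies given above.

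No respiratory chain gene passed the threshold between Plxnd1 knockout and wild-type endothelial cells. Between knockout and wild type, 0 of 18209 genes passed an adjusted p of 0.05 (edgeR quasi-likelihood test, Benjamini-Hochberg), so the background is 0% higher and 0% lower. At an unadjusted p under 0.05 there were 431 genes, 1 of them a nuclear member, and DESeq2 called 34 genes, with 0 nuclear members and 0 mitochondrial mRNAs. Of 79 nuclear members tested, 47 had a log2 fold change above 0 and 32 below, with a median of 0.02 against -0.01 over all genes. Cox4i2, the restricted form of Cox4i1, was at 1.17 and 0.936 CPM in wild type and at 2.66, 1.58 and 1.84 in knockouts. The knockout libraries were all above the wild-type ones, at 26 to 67 counts per library, and the difference of 0.94 ± 0.345 (SE, log2) had an adjusted p of 0.999 in the edgeR quasi-likelihood test. Cox7a2l, a factor of respiratory supercomplexes, had the next smallest p at -0.19 ± 0.107.

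No mitochondrial RNA passed the unpaired test in the endothelial knockout, and 2 of 3 knockout libraries had more mitochondrial mRNA than wild type. All 7 measured mRNAs had log2 fold changes above 0, from 0.19 to 0.39 with a median of 0.30. That median was 0.19 without knockout batch 2 or without batch 3, and 0.18 with libraries paired by batch. mt-Nd5, a proton-pumping subunit of complex I, was at 975 and 1235 CPM in wild type and at 1054, 1553 and 1736 in knockouts. Batches 2 and 3 were above both wild-type libraries and batch 1 was between them. mt-Rnr2, the large rRNA of the mitochondrial ribosome, was at 153 and 171 CPM in wild type and 179, 265 and 293 in knockouts, a difference of 0.60 ± 0.209 with an adjusted p of 0.999. Within batches 1 and 3, the pairs that exist in both genotypes, the median mRNA difference was 0.03 and 0.30.

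With libraries paired by batch, mt-Rnr2 passed. Because wild-type batch 2 was left out, that fit rests on 2 pairs, with 1 residual degree of freedom per gene. The paired edgeR quasi-likelihood fit called 139 genes higher (0.763% of those tested) and 41 lower. Among the members it called mt-Rnr2 alone, at 0.50 ± 0.107 with an adjusted p of 0.015, while mt-Rnr1 was at 0.28 ± 0.0928 (adjusted p = 0.23) and Cox4i2 at 1.09 ± 0.329 (adjusted p = 0.16). The same fit called Plxnd1 at -3.04 ± 0.108 (adjusted p = 5.5e-15), which the unpaired fit gave at -3.20 ± 0.262 with an adjusted p of 0.16. In the unpaired fit of 2 against 3 libraries even the deleted gene did not pass.

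In motor neurons no member passed the threshold either. Of 16695 genes, 0 were higher (0%) and 2 lower (0.012%), none of them a member. At an unadjusted p under 0.05 there were 190 genes and 0 nuclear members. DESeq2 called 4 genes and 0 of these members. The edgeR quasi-likelihood result for Plxnd1 itself was -2.97 ± 0.458. The nuclear median was -0.04 on the log2 scale against 0.004 over all genes, with 19 members above 0 and 60 below. Other short genes were also below 0. For exon lengths under 1000 bases the median was -0.032 for nuclear members and -0.026 for other genes. From 1000 to 2000 bases it was -0.047 and -0.019. The mitochondrial mRNA median was -0.03. Ndufb5 (-0.15 ± 0.0746), an accessory subunit of complex I, and Atp5mpl (-0.16 ± 0.0840), a small subunit associated with complex V, had the smallest p.

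The mitochondrial rRNAs of 1 knockout motor neuron library stood apart. mt-Rnr2 was at 179.8, 211 and 202 CPM in wild type and at 4529, 183 and 234 in knockouts. mt-Rnr1, the small rRNA, was at 103, 111 and 101 CPM and at 2931, 91.3 and 124. Only batch 1 of the knockouts was high, and batches 2 and 3 lay in or near the range of wild type. The fitted differences of 3.32 ± 1.22 for mt-Rnr1 and 3.07 ± 1.14 for mt-Rnr2 became 0.03 and 0.08 without that library. The same library had 685.6 CPM of liver markers (8 genes) against 0.886 to 4.69 in the others of its series, while its mitochondrial mRNA share, at 0.794%, was the lowest of the series. Whether the liver transcripts and the rRNA have a common source was not tested.

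The knockout difference itself was compared between the cell types. In this interaction 0 of 19266 genes were called in either direction (0%), 352 had an unadjusted p under 0.05 and 0 of those were nuclear members (edgeR quasi-likelihood test), and DESeq2 called 1 gene. The median was -0.05 for nuclear members and -0.33 for the 7 mitochondrial mRNAs, all of which were below 0. On simulated counts the interaction test recovered only 4% of 2-fold changes, so its lack of calls is not evidence of equal responses.

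Motor neurons and endothelial cells differed in many members but in no common direction. With both genotypes averaged, 29 of 80 nuclear members tested were higher in motor neurons, 16 were lower and 35 did not pass. That is 36.2% higher and 20% lower, where 37% of all 19266 genes were higher and 39% lower. The nuclear median was 0.10 against -0.02 for all genes (log2, motor neurons over endothelial cells). By complex, 16 of 37 were higher and 7 lower in complex I, 1 and 3 of 4 in complex II, 3 and 2 of 8 in complex III, 4 and 2 of 14 in complex IV, and 5 and 2 of 17 in complex V. The split depends on scaling: by total counts, which lowers the median of all genes to -0.12, 18 members were higher and 21 lower. In 23 of the 80 every motor neuron library was above every endothelial one and in 15 below, where all genes gave 31% and 33.4%.

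Cox5a, a nuclear subunit of complex IV, had the smallest p. It was at 47.9 and 49.0 CPM in wild-type and 48.0, 44.6 and 46.1 in knockout endothelial cells, and at 105, 111 and 109 in wild-type and 99.1, 112 and 102 in knockout motor neurons. The cell types did not overlap and the genotypes did, and the difference of 1.17 ± 0.054 (SE) is 2.25-fold (adjusted p = 1.5e-08, edgeR quasi-likelihood test). The next 4 were smaller. Uqcrfs1, the Rieske iron-sulfur protein of complex III, rose from 76.6 to 84.4 CPM in endothelial cells to 109 to 132 in motor neurons (0.59 ± 0.0628), and Ndufs1, the largest iron-sulfur subunit of complex I, from 79.5 to 97.1 up to 126 to 137 CPM (0.55 ± 0.0623). Ndufs4 (0.49 ± 0.0601), an assembly and stability subunit of complex I, and Cox6a1 (0.54 ± 0.0684), the general form of a complex IV subunit, complete the 5 of smallest p.

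Of 13 genes for catalytic and iron-sulfur subunits, 8 were higher and 1 lower in motor neurons (61.5% and 7.69%, against 37% and 39% of all genes), with a median of 0.17. This list was drawn up with earlier results of these data known and was not tested as a set. Atp5b (0.38 ± 0.0723) and Atp5a1 (0.24 ± 0.0652), whose products form the catalytic head of complex V, were both higher. In complex II the iron-sulfur subunit Sdhb was higher (0.17 ± 0.0482), and the flavoprotein Sdha (-0.20 ± 0.0695) and the membrane anchors Sdhc (-0.22 ± 0.0529) and Sdhd (-0.28 ± 0.0552) were lower. The largest of these 4, in Sdhd, was 1.22-fold. Accessory subunits of complex I were found on both sides: Ndufa8 (0.50 ± 0.0651) and Ndufb10 (0.47 ± 0.0700) were higher, and Ndufa2 (-0.56 ± 0.0665) and Ndufb11 (-0.42 ± 0.0591) lower.

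**Figure D3:**
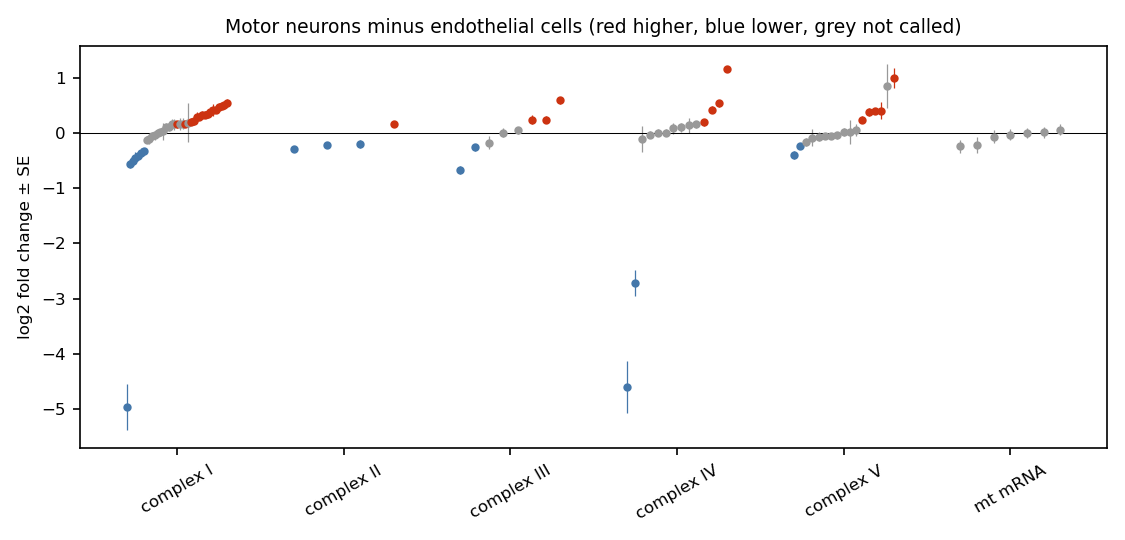
Log2 fold change with SE, motor neurons over endothelial cells, for each tested nuclear member by complex and for the mitochondrial mRNAs; red higher, blue lower, grey not called. Ndufa4l2 (-4.97), Cox4i2 (-4.60) and Cox6b2 (-2.72) lie far below the rest, and Cox5a (1.17) is the highest.

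The largest differences were in restricted isoforms, which stood at 2.01 CPM or less in every motor neuron library. Ndufa4l2, a paralogue of the complex IV subunit gene Ndufa4 and known as a pericyte and hypoxia gene, was at 15.7 and 10.8 CPM in wild-type and 25.6, 11.8 and 11 in knockout endothelial cells. In motor neurons it was at 1.19, 0.288 and 0.419 in wild type and 0.456, 0.121 and 0.424 in knockouts (3 to 29 counts), a difference of -4.97 ± 0.414 (adjusted p = 1.1e-06, edgeR quasi-likelihood test). Cox6b2, known from testis, was at 8.24 to 11.7 CPM in endothelial cells and at 0.925 to 2.01 in motor neurons, lower, at -2.72 ± 0.234. Both were apart in every library.

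Cox4i2 was at 0.936 to 2.66 CPM in endothelial cells and at 0 to 0.123 in motor neurons. With 0 to 3 counts per motor neuron library its fitted value of -4.60 ± 0.473 depends on the prior count and gives no usable fold. A count of 0 allows up to 0.111 to 0.145 CPM at these depths. The pericyte markers (8 genes) moved with these genes, at 1224 to 1852 CPM in the endothelial libraries and 21.13 to 40.65 in motor neurons. Their part in the result was not tested.

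The general forms did not show such a drop. Cox6a1, Ndufa4 (0.33 ± 0.0672), Cox6b1 (0.20 ± 0.0618) and Cox7a2 (0.42 ± 0.0636) were higher in motor neurons, and Cox4i1 (0.01 ± 0.0574), Cox8a (0.16 ± 0.0687) and Cox7b (0.11 ± 0.0831) were not called. By length-scaled level, Cox4i1 exceeded Cox4i2 in every library of both cell types, with 872 ± 9.08 against 4.12 ± 0.481 in wild-type endothelial cells. Cox7a1, a muscle form, was not called (-0.11 ± 0.230, 8 to 19 counts per library). Cox6a2, Cox7b2, Cox8b and Cox8c were too low to test, with at most 5 counts in any library. Muscle markers (12 genes) were at 4.226 to 14.38 CPM in the knockout series. Of the c subunit genes, Atp5g1 was higher (1.0 ± 0.181), and Atp5g2 (0.02 ± 0.222) and Atp5g3 (-0.05 ± 0.0550) were not called. Uqcr10, a small subunit of complex III, was at 27.7 to 35.3 CPM in endothelial cells and 19.2 to 21.5 in motor neurons, without overlap (-0.67 ± 0.0683).

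**Figure D4:**
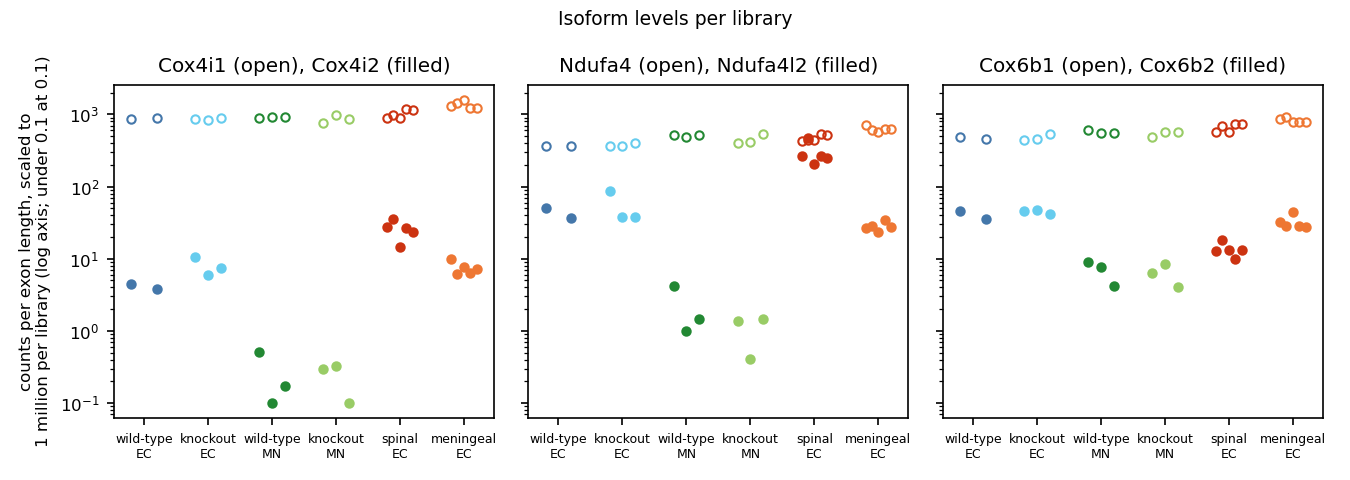
Length-scaled levels (log axis) of Cox4i1 and Cox4i2, Ndufa4 and Ndufa4l2, and Cox6b1 and Cox6b2 in each library, the first of each pair open and the second filled; values under 0.1 are drawn at 0.1. Only for Ndufa4l2 in spinal endothelial cells (291 ± 104 against 473 ± 49.8 for Ndufa4) does a restricted form come near its partner.

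No mitochondrial mRNA passed the test between the cell types in the unpaired fit (0 of 7), with a median of -0.03 and 4 below 0. DESeq2 called 0 as well, and 0 had an unadjusted p under 0.05. Paired by batch, 2 were lower in motor neurons where 39.5% of all genes were: mt-Nd5 (-0.22 ± 0.0829, adjusted p = 0.039) and mt-Nd6 (-0.24 ± 0.0788, adjusted p = 0.020). The unpaired fit called 2 without knockout endothelial batch 1 and 1 without wild-type endothelial batch 1. This series was counted without strand, so mt-Nd6 counts may include reads from the opposite strand. mt-Rnr1 stood at 1.5 ± 0.774 without passing, and at -0.14 without the knockout motor neuron library of high rRNA.

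Other genes of mitochondrial energy metabolism were counted by lists, to be read against the 37% of all genes that were higher and 39% lower. Of 44 assembly factors tested, 24 were higher in motor neurons (54.5%) and 6 lower (13.6%), with a median of 0.29. Cox19 (1.40 ± 0.0705), a copper chaperone for complex IV, and Ecsit (1.16 ± 0.0680), a complex I assembly factor, rose. Nubpl (-1.05 ± 0.118), which delivers iron-sulfur clusters to complex I, and Uqcc2 (-0.63 ± 0.0713), a complex III factor, fell. Of 17 electron carriers and their makers, 10 were higher (58.8%), among them Cyc1 (0.50 ± 0.0562), cytochrome c1, and 4 lower (23.5%), among them both subunits of the electron transfer flavoprotein, Etfa (-1.41 ± 0.0831) and Etfb (-1.71 ± 0.122). Of 18 citric acid cycle genes, 9 were higher (50%) and 4 lower (22.2%), with Mdh2 (0.84 ± 0.0626), malate dehydrogenase, on one side and Suclg2 (-3.74 ± 0.208), the GTP-forming succinyl-CoA ligase subunit, on the other.

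Genes for the upkeep and expression of mitochondrial DNA had no common direction. Of 29 that maintain mitochondrial DNA or transcribe and process its RNA, 7 were higher (24.1%) and 10 lower (34.5%). The mitochondrial RNA polymerase Polrmt was higher (0.46 ± 0.0772) and the exonuclease Mgme1 lower (-1.69 ± 0.115). Of 78 mitochondrial ribosomal protein genes, 18 were higher (23.1%) and 22 lower (28.2%). In both lists each side was below the share of all genes. Among 13 regulators 5 were higher (38.5%) and 4 lower (30.8%): the nuclear receptor genes Esrrg (3.4 ± 0.253) and Esrra (0.87 ± 0.0907) were higher, and Gabpa (-1.16 ± 0.0828), a subunit of an ETS-family activator of respiratory genes, and the hypoxia factor gene Epas1 (-5.58 ± 0.406) lower. In glycolysis 8 of 22 were higher (36.4%) and 10 lower (45.5%), near the shares of all genes, with the neuronal enolase Eno2 (2.48 ± 0.113) against the glucose transporter Slc2a1 (-3.39 ± 0.161) and the hexokinase Hk2 (-3.32 ± 0.206). Cytosolic ribosomal protein genes, also short and abundant, were lower in 64 of 80 (80%) with a median of -0.73.

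Many nuclear respiratory chain genes were lower in spinal than in meningeal endothelial cells over the 5 batches together, and Ndufa4l2 and Cox4i2 were higher. Of 80 nuclear members tested, 44 were lower, 2 higher and 34 did not pass (edgeR quasi-likelihood test, 5 libraries against 5), where 23% of all 16213 genes were lower and 24.8% higher. With libraries paired by batch, 31 of 80 were lower and 2 higher. Batches 4 and 5 alone gave 7 lower and 8 higher. The median was -0.46 on the log2 scale (spinal over meningeal) against 0.01 over all genes, with 75 of 80 below 0 and 5 above (Ndufs1, Cox5a and Uqcrfs1 without a call). In 22 members every spinal library was below every meningeal one and in 1 above, where all genes gave 17.3% and 19.2%. The lower calls were in all complexes: 22 of 37 in complex I, 2 of 4 in complex II, 5 of 8 in complex III, 5 of 14 in complex IV and 10 of 17 in complex V.

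Ndufa13, an accessory subunit of complex I also known as GRIM-19, was at 63.6, 77.6, 62.1, 107 and 95.3 CPM in spinal and 163, 144, 142, 124 and 131 in meningeal batches 1 to 5. All spinal libraries were below all meningeal ones (-0.79 ± 0.155, adjusted p = 0.001). Atp5o, the stalk subunit of complex V that confers oligomycin sensitivity, was at 132, 180.3, 139, 193 and 193 against 339, 279.8, 288, 228 and 239.7, also without overlap (-0.71 ± 0.148, adjusted p = 0.0016). Both were lowest in spinal batches 1 and 3. Ndufa5 (-0.74 ± 0.156) and Ndufb11 (-0.83 ± 0.178), further accessory subunits of complex I, and Cox6b2 complete the 5 of smallest p on the lower side. Cox6b2 was at 2.92, 5.14, 3.01, 3.13 and 4.19 CPM in spinal and 11.8, 8.53, 13.4, 7.79 and 7.62 in meningeal libraries (-1.42 ± 0.228), with no overlap.

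Against that trend, Ndufa4l2 was 9.46-fold higher in spinal cells. It was at 74.8, 169.5, 60.2, 105 and 98.2 CPM in spinal and 12.3, 10.8, 8.86, 11.9 and 9.70 in meningeal batches, far apart in each (3.24 ± 0.253, adjusted p = 8.6e-07). Cox4i2 was at 6.55, 10.7, 3.59, 8.81 and 7.81 against 3.91, 1.99, 2.45, 1.89 and 2.13, where spinal batch 3 and meningeal batch 1 overlapped (1.59 ± 0.301, adjusted p = 0.00083). Both are known as pericyte genes, and the summed pericyte markers were also higher in spinal cells. These were at 4864, 9114, 3638, 4610 and 4646 CPM in spinal batches 1 to 5 and at 1303 to 1729 in meningeal ones. Spinal batch 2 was the highest and batch 3 the lowest in the markers and in both genes. Spinal batch 1, however, was above batches 4 and 5 in the markers and below them in both genes. Among meningeal libraries, batch 4 had the most of the markers (1729 CPM) and the least Cox4i2 (1.89 CPM). The part of the pericyte markers in the result was not tested.

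The general partners of these isoforms went the other way. Ndufa4 (-0.57 ± 0.179, adjusted p = 0.019) and Cox4i1 (-0.57 ± 0.195, adjusted p = 0.028) were lower in spinal cells, though Cox4i1 was not called with libraries paired by batch (adjusted p = 0.064). The other 5 general forms were below 0 without passing, from -0.23 to -0.48. Cox7a1 was lower (-1.09 ± 0.346) at 3 to 22 counts per library, and not called in batches 1 to 3 or in 4 and 5 alone. All c subunit genes were lower, Atp5g1 at -0.40 ± 0.134, Atp5g2 at -0.46 ± 0.131 and Atp5g3 at -0.41 ± 0.145, the last not when paired (adjusted p = 0.065). The call for Atp5g1 was lost without spinal batch 1, 2 or 3 (adjusted p from 0.0542 to 0.0584), and that for Atp5g3 without spinal batch 1 or 3 or meningeal batch 4 or 5 (0.0546 to 0.0586, edgeR). Of the 13 catalytic and iron-sulfur subunits 3 were lower, which is near the 23% of all genes that were lower. Among them were Ndufs8 (-0.73 ± 0.179) and Sdhb (-0.44 ± 0.158, adjusted p = 0.070 when paired), and Atp5b was not called (-0.08 ± 0.147).

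Mitochondrial RNAs were also below 0, with few calls. All 7 mRNAs had negative log2 fold changes (median -0.51). Where 23% of all genes were lower, mt-Nd5 and mt-Nd6 passed. Paired by batch, mt-Nd5 and mt-Nd2 (-0.50 ± 0.172, adjusted p = 0.043) did. mt-Nd5 was at 1425, 2210.2, 1217, 1278 and 1681 CPM in spinal and 3292, 3598, 2321, 1898 and 1996 in meningeal batches, with only spinal batch 2 inside the meningeal range (-0.75 ± 0.231, adjusted p = 0.018). mt-Nd6 was at 8.30, 15.5, 10.8, 11.4 and 17.8 against 50.1, 36.6, 22.2, 7.27 and 19.1 and overlapped widely (-1.08 ± 0.406, adjusted p = 0.044, and 0.11 when paired). mt-Rnr1 was lower, at -1.59 ± 0.530 (adjusted p = 0.026, and 0.051 when paired). It was at 139.8, 167, 131, 349 and 552 CPM in spinal and 497, 1937, 757, 298 and 547 in meningeal batches, with meningeal batch 2 the highest and batch 4 below 2 of the spinal libraries. The call for mt-Nd6 was lost without spinal batch 1, 2, 3 or 4 or meningeal batch 1 or 2 (adjusted p from 0.0548 to 0.119), and that for mt-Rnr1 without spinal batch 1, 2 or 3 or meningeal batch 2 (0.0536 to 0.0742, edgeR).

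The difference was large in batches 1 to 3, whose spinal cells came from ventral cord, and nearly gone in batches 4 and 5, from whole cord. In batches 1 to 3, 62 of 80 nuclear members were lower (22.1% of all genes) and 2 higher (21%), with a median of -0.80. In batches 4 and 5, 7 were lower (26.6%) and 8 higher (27.3%), with a median of -0.04. The median spinal minus meningeal difference per batch was -1.12, -0.49, -0.73, -0.00 and -0.05 for batches 1 to 5, with 78, 64, 75, 41 and 43 of 80 members lower. Dissected region and batch cannot be told apart here.

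**Figure D5:**
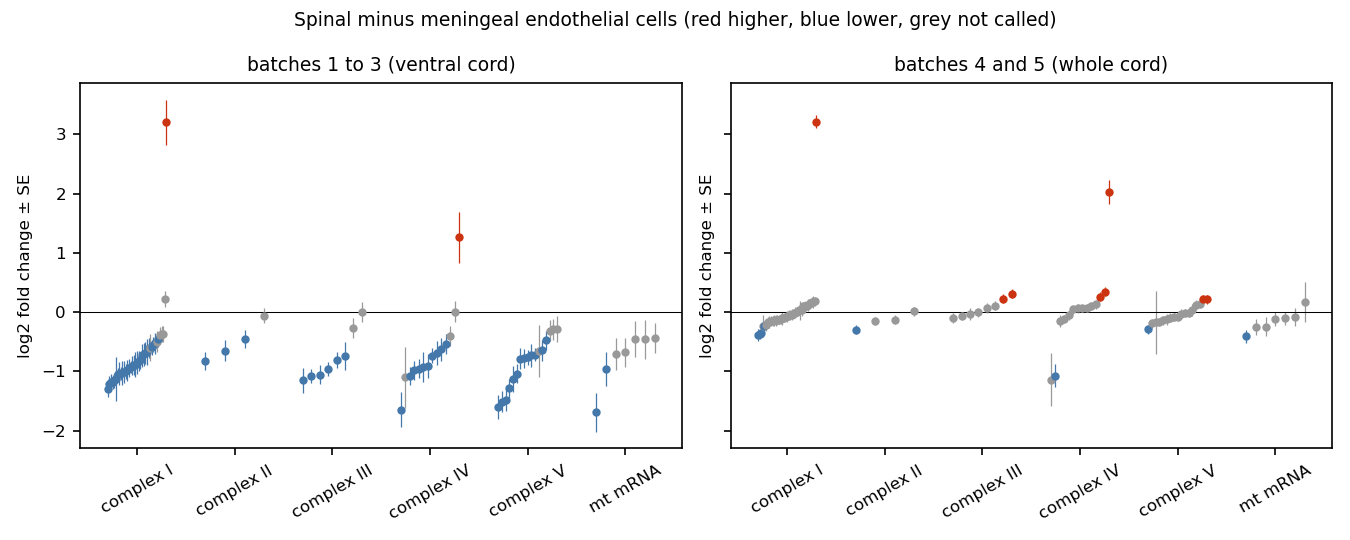
Log2 fold change with SE, spinal over meningeal endothelial cells, for the tested nuclear members by complex and the mitochondrial mRNAs, in batches 1 to 3 (left) and batches 4 and 5 (right); red higher, blue lower, grey not called. The left panel has a median of -0.80 and the right one of -0.04, and Ndufa4l2 and Cox4i2 are high in both.

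The change between the batches was tested as an interaction. The split of the batches was chosen after seeing these data, so its p-values are not those of a planned test. Of 80 nuclear members, 7 had a significantly lower difference in batches 1 to 3 and 0 a higher one, where 0.408% and 0.14% of all genes did. Its median was -0.70 and 76 of 80 were below 0. The 7 were Ndufb8 (-1.0 ± 0.159), Ndufa7 (-0.88 ± 0.152) and Ndufs8 (-1.05 ± 0.185) of complex I, Uqcrq (-0.98 ± 0.170) and Uqcr11 (-1.0 ± 0.186) of complex III, and Atp5j2 (-1.39 ± 0.244) and Atp5md (-1.58 ± 0.288) of complex V, with adjusted p from 0.038 to 0.049 in the edgeR quasi-likelihood test. Ndufb8 was at 56.9, 64.4, 58.1, 95.3 and 88.5 CPM in spinal and 128, 146, 123, 103 and 95.5 in meningeal batches. Atp5md was at 15.6, 21.7, 14.7, 31.5 and 33.9 against 56.3, 58.4, 39.5, 29.9 and 33.7. In both the spinal libraries of batches 1 to 3 were low and the meningeal ones high, while those of batches 4 and 5 met.

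Each side was then compared between the batches. Within spinal cells 14 nuclear members and both rRNAs were lower in batches 1 to 3 than in 4 and 5, where 3.32% of all genes were, with a nuclear median of -0.44. mt-Rnr1 fell by 1.61 and mt-Rnr2 by 1.71 on the log2 scale. Within meningeal cells no member was called in either direction and 0.00597% of all genes were higher, with 3 of 16761 genes called in all (edgeR quasi-likelihood test). The values there were nevertheless above 0 in 73 of 80 nuclear members, with a median of 0.28, and in all 7 mitochondrial mRNAs, from 0.60 to 1.5 with a median of 0.73, such as mt-Nd2 at 0.75 ± 0.191. An unadjusted p under 0.05 was reached by 28 nuclear members and all 7 mRNAs, and by 2069 genes in total.

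Some differences were called in both sets of batches. Ndufa4l2 was higher by 3.21 in each and Cox4i2 by 1.26 and 2.03 in batches 1 to 3 and in 4 and 5. In batches 4 and 5 Cox5a (0.35), Uqcrfs1 (0.31), Cox7a2l (0.26), Uqcrc2 (0.23), Atp5h (0.22) and Atp5mpl (0.22) were higher as well. Of these, Cox7a2l (-0.63), Atp5h (-0.73) and Atp5mpl (-1.13) were lower in batches 1 to 3, and the other 3 were not called there. On the lower side in batches 4 and 5 were Cox6b2 (-1.07), Ndufa2 (-0.39), Ndufa5 (-0.37), Ndufa13 (-0.35), Sdhc (-0.29), Atp5o (-0.29) and Ndufb11 (-0.23). mt-Nd5 was the only mitochondrial mRNA called there (-0.41).

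Other measures moved with this split. Cytosolic ribosomal protein genes were lower in 78 of 81 with a median of -1.28 in batches 1 to 3 and in 57 of 83 with -0.25 in batches 4 and 5. Short genes were lower in general: among genes that are not members, the median in batches 1 to 3 was -0.59 for exon lengths under 1000 bases, -0.32 from 1000 to 2000, -0.03 from 2000 to 4000 and 0.23 above. The nuclear members had a median exon length of 891.5 bases against 3223 for all genes tested. They were at -0.90, -0.73, -0.62 and -0.62 in the same classes (the last with 2 genes). Each value was below the median of the other genes in its class, which were not matched to the members for abundance. In batches 4 and 5 members under 1000 bases were at -0.05 and other such genes at -0.16. Erythroid markers were at 4537, 33440, 14230, 44670 and 46860 CPM in spinal and 55000, 7818, 21260, 7297 and 10820 in meningeal batches, and macrophage markers (8 genes) at 3273 and 3180 CPM in spinal batches 4 and 5 against 988.7 to 1568 in 1 to 3. Other markers separated the regions in all batches: fibroblast and meningeal markers were at 1304 to 2586 CPM in spinal and 14700 to 20820 in meningeal libraries, and neuronal markers (8 genes) at 934.6 to 2136 against 214.5 to 582.5. Endothelial markers were at 3611, 2807, 1863, 4223 and 4041 CPM in spinal and 990.2, 1002, 1238, 2047 and 1421 in meningeal batches, where spinal batch 3 and meningeal batch 4 overlapped. The part of these in the result was not tested.

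Of the related mitochondrial lists over all 5 batches, mitochondrial ribosomal protein genes and assembly factors had a larger share of lower calls than all genes (23%), and the others did not. Mitochondrial ribosomal protein genes were lower in 45 of 78 (57.7%) and higher in 0, with a median of -0.37, among them Mrps25 (-0.77 ± 0.109) and Mrpl54 (-1.05 ± 0.170). Their median spinal minus meningeal difference was -0.80, -0.44, -0.50, -0.14 and -0.10 in batches 1 to 5, so it too was larger in batches 1 to 3. Of 45 assembly factors 14 were lower (31.1%) and 1 higher, with Uqcc2 at -1.21 ± 0.188. Of 29 genes for mitochondrial DNA upkeep and RNA metabolism 5 were lower (17.2%) and 0 higher. Among the 5 were Hsd17b10 (-1.22 ± 0.144), a subunit of mitochondrial RNase P, and Tfb1m (-0.56 ± 0.136), an rRNA methyltransferase. Of 18 citric acid cycle genes 4 were lower (22.2%) and 2 higher (11.1%), and of 17 electron carrier genes 3 were lower (17.6%), with Coq9 (-0.59 ± 0.103), a coenzyme Q factor, among them.

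Regulators and glycolysis genes had more higher than lower calls, where 24.8% of all genes were higher. Of 13 regulators 6 were higher in spinal cells (46.2%), 0 lower and 7 not called, with Esrrg at 3.82 ± 0.179 and Epas1 at 2.33 ± 0.215. Of 22 glycolysis genes 11 were higher (50%), 2 lower (9.09%) and 9 not called. Aldoc (4.95 ± 0.295), the brain aldolase, and Slc2a1 (2.24 ± 0.244), the glucose transporter of the blood-brain barrier, were higher, and Pdk1 (-0.70 ± 0.123), a kinase that inhibits pyruvate dehydrogenase, and Tpi1 (-0.63 ± 0.162), triosephosphate isomerase, were lower.

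Some of the nuclear members share a promoter motif, and most of those searched lack it. RefSeq start sites (GRCm38.p6) were matched for 67 of the 88 nuclear members, and the 250 bases before to 50 after each start were searched on both strands. The motif of NRF1, a known activator of respiratory genes, which is GCGCA, any 1 base and GCGC, was found in 17 members (25.4%) and in 5.19% of all 27025 genes. The motif CCGGAAG of ETS factors, the family of Gabpa, was found in 17 (25.4%) against 9.93%, and the hypoxia element core ACGTG in 16 (23.9%) against 21.8%. None of the motifs contains another. The shares of all genes were not matched to the members for base composition. A match is a description of the letters and not a measured site.

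The promoters of Cox6a1, Sdha and Ndufa5 are shown because these genes took different directions in the comparisons above while sharing the NRF1 motif. Cox6a1 was higher in motor neurons and Sdha lower, and Ndufa5 was lower in spinal cells. Each line holds the 250 bases before a start site, with matches in capitals: chr5:115348959-115349208 (minus strand, first bases of the matches at -162 and -117), chr13:74350241-74350490 (minus strand, at -98, -55 and -10) and chr6:24527691-24527940 (minus strand, at -26).
Cox6a1: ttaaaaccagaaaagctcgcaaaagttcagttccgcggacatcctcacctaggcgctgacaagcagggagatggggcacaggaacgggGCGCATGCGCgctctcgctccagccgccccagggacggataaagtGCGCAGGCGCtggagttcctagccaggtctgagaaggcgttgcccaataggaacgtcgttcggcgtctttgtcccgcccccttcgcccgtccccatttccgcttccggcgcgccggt
Sdha: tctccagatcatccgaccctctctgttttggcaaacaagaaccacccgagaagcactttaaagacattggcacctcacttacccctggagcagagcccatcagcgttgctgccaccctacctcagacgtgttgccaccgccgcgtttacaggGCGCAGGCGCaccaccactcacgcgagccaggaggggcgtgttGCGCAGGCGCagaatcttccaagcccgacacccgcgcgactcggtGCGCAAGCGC
Ndufa5: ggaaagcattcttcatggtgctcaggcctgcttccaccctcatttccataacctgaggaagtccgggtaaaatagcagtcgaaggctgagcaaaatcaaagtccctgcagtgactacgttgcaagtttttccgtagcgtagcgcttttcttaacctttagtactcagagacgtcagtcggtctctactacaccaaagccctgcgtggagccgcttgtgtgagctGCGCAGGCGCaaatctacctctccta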

How the data were processed

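The deposited values are raw counts per gene name, summed over exons with featureCounts 1.6.4 and the GENCODE M22 basic annotation (mm10, GRCm38), per the file headers. Counting ignored strand and took single-end reads in the knockout series, and took read pairs with a reverse strand setting in the regional one, and reads with several alignments were left out, per the file headers. Trimmomatic 0.39, STAR 2.5.3a and DESeq2 are named in the submitters' processing notes. Of the 22 libraries deposited, 21 were used: the counts of wild-type endothelial batch 2 repeat those of knockout batch 1 in all 55376 genes, so that wild-type group is n = 2.

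All genes that passed filterByExpr (minimum count 10) were tested together in R 4.3.3 by the quasi-likelihood F-test of edgeR 4.0.16 after TMM scaling. Calls were made at 0.05 after Benjamini-Hochberg adjustment over all of them. Within each cell type the knockout was compared with wild type, the cell types and the interaction came from 1 fit of 11 libraries, and the regions from 10. SE is the log2 fold change divided by the square root of F. CPM uses TMM-scaled library sizes, and shares use plain counts. A count of 0 allows 3 counts, and such limits cover counting error only. The fits were checked on simulated counts. For Plxnd1 loss, 43% of simulated 2-fold changes were recovered with endothelial libraries and 80% with motor neuron libraries. At 1.5-fold this dropped to 6% and 13%. The interaction recovered 4% at 2-fold and 1% at 1.5-fold. Recovery was 96% and 26% between cell types, and 80% and 20% between regions. The simulation gave all genes the same dispersion and no batch differences, and it changed only genes with higher counts. Recovery in the real data can therefore be lower. A lack of calls says little about changes of 1.5-fold or less, and in the interaction about 2-fold ones too. The same holds at 2-fold for the endothelial knockout, where even Plxnd1 did not pass the unpaired fit. The labels give batch numbers that pair libraries. Levels centred within groups correlated across genes at r = 0.397 and 0.468 in the endothelial pairs, 0.279, 0.318 and 0.271 in the motor neuron pairs, and -0.273, -0.032, 0.303, 0.169 and 0.038 in regional batches 1 to 5.

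The members and gene lists were chosen with earlier results of these data known. Genes named are the mitochondrial mRNAs and rRNAs, the isoform and c subunit lists, the 5 nuclear members of smallest p per direction among those called (2 where none was called), 2 per related list and direction, and members chosen after their values were seen where a sentence on a complex, on the batches or on copies needed one. Copies were found with blastn 2.17.0+ among annotated GRCm38 transcripts, at 95% identity or more over at least 100 bases. Alternatives were DESeq2 1.42.0, total count scaling, no filter, batch as a block, wild type only, the split by batches, and leaving out each library.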

Additional observations from a re-analysis of the deposited data

Results flagged for a closer look

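Among 60 groups of 5 libraries tested for a single distant value, 3 were found, and chance gives about 1 in 20. Meningeal batch 1 had 3.91 CPM of Cox4i2 where the other 4 meningeal libraries had 1.888 to 2.449. The same library had 222.0 CPM of Ndufa4 against 145.8 to 158.2. Meningeal batch 2 had 1937.0 CPM of mt-Rnr1 against 298.0 to 757.1. Their causes were not tested.

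The spinal minus meningeal difference was lower in batches 1 to 3 than in 4 and 5 by -1.386 for Atp5j2, -0.9968 for Uqcr11, -0.981 for Uqcrq, -0.8761 for Ndufa7, -1.046 for Ndufs8, -1.003 for Ndufb8 and -1.58 for Atp5md on the log2 scale, each past the threshold of the edgeR interaction test. That test was added after seeing the data.

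Rows outside the members also carried counts. Gm28438, the chromosome 1 copy of mt-Nd3, reached 49 counts in 1 library and 0 in another. Ndufb1-ps, a row left out for its name, had 375 to 1765 counts per library, which is the range of many members. It was at 16.2 to 22.6 CPM in the knockout series.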

How the results depend on the processing

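Under the alternatives, 586 values of single genes kept their direction and call, 27 lost the call, 15 gained it and 12 turned, and 221 counts of calls stayed within 1.5 times and 15 did not. Nuclear members higher in motor neurons were 29, and 18 with total count scaling or 19 with wild type only. Mitochondrial mRNAs lower there were 0, and 2 with total count scaling, 2 with the replicate block that pairs libraries by batch, and 0 to 2 on leaving out a library. Nuclear members in the regional comparison were 44 lower and 2 higher, and 7 and 8 in batches 4 and 5. Leaving out a library gave 30 to 56 lower. Mitochondrial mRNAs lower in spinal cells were 2, and 4 by DESeq2, 1 in batches 4 and 5, and 1 to 2 without a library.

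Directions turned for low or noisy genes. Cox7a1 between the cell types went from -0.11 to 0.0668 without wild-type endothelial library 1 (lowest -0.2479 without wild-type endothelial library 3). Atp5g2 went from 0.02 to -1.257e-05 by DESeq2, -0.0831 with total count scaling, and between -0.1398 and -0.004989 in 5 of the fits that leave out a library (-0.03565, -0.009568 and -0.03226 in the others; highest 0.129). mt-Rnr1 went from 1.5 to -0.1362 without knockout motor neuron library 1 (highest 1.778). In batches 4 and 5 alone, mt-Nd6 was at 0.1667, mt-Rnr1 at 0.08177 and mt-Rnr2 at 0.3463. With the block, of the results the text leads with, those that lost or gained a call are given beside them in the report: mt-Rnr2 in the endothelial knockout, mt-Nd5 and mt-Nd6 between the cell types, and Cox4i1, Sdhb, Atp5g3, mt-Nd2, mt-Nd6 and mt-Rnr1 between the regions. The regional split by batches and the member subsets were chosen after seeing the data. Depth limits genes with few counts, such as Cox4i2 in motor neurons.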
